A study of Mus musculus with 9 samples.

Results

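The translation initiation and elongation factors were taken as all genes whose symbol starts with Eif and a digit, or with Eef1 or Eef2, without pseudogenes. They are 65 of the 47593 gene symbols measured, and 357 of the 115220 transcripts. The rule used no measured value. Ribosome-associated RNA from mPFC (medial prefrontal cortex) neurons of adult C57BL/6 mice was obtained with RiboTag, a method that tags a protein of the ribosome and pulls it down along with bound RNA, and was sequenced from stranded total RNA libraries. There were 9 libraries in 3 groups of 3. Control animals with GFP overexpressed in the mPFC were either asleep (sleep) or kept awake (enforced wake). The last group, called Fxr1 here, was kept awake too and overexpressed GFP-Fxr1 in the mPFC; Fxr1 binds RNA and is a relative of the fragile X protein. All groups therefore carried an overexpressed GFP, alone or fused, and the tagged ribosomes. The driver of the tag, the length of the wake period and the number of animals behind a library are not given in the sources used here. All p-values thus reflect the spread among these libraries and no more, and part of it may be technical.

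Translation of a messenger RNA starts when eIF2 carries the initiator tRNA to the small ribosomal subunit, together with eIF1, eIF1A, eIF3 and eIF5. The cap-binding protein eIF4E, the scaffold eIF4G and the helicase eIF4A form eIF4F, which loads the messenger RNA, and the 4E-binding proteins hold eIF4E back until they are phosphorylated by mTOR. Kinases that phosphorylate the alpha subunit of eIF2 block its exchange factor eIF2B, which is the core of the integrated stress response. In elongation, eEF1A brings each aminoacyl-tRNA and eEF2 moves the ribosome along, and in neurons the kinase of eEF2 links synaptic activity to the rate of elongation.

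The copies of eEF1A show how members of 1 family differ in base composition, a property that the differences below followed. Eef1a1 (chr9:78478449-78489151, minus strand) is the widely expressed form and Eef1a2 (chr2:181147653-181157014, minus strand) the form of mature neurons and muscle. Their coding sequences have a GC content of 49.8% and 56.9%, and at the third position of the codons of 51.9% and 72.8%. The first 90 coding bases, from the GENCODE transcripts of GRCm38, 5′ to 3′ with the differing bases in capitals, are shown because the copies differ here at the third position of codons alone.
Eef1a1: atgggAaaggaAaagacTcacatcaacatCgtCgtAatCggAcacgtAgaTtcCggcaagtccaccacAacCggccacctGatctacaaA
Eef1a2: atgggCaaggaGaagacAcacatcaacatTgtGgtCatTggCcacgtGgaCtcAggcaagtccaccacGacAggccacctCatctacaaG
In this stretch 15 of 90 bases differ, all 15 at the third position of a codon. At 8 of them Eef1a1 has A or T and Eef1a2 has G or C, and at 4 the reverse.

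Levels are FPKM (fragments per kilobase of transcript, scaled to the mapped fragments of the library), summed over the transcripts of a gene. Low FPKM values, which step by single fragments, gave libraries of an estimated 29900000 to 37300000 fragments, with enforced wake at 29900000 to 30700000 and Fxr1 at 33900000 to 37300000. The step was searched within a fixed range of depths, so a depth outside that range could not have been found. The Fxr1 gene itself was at 76.9 ± 12.5 FPKM in the Fxr1 group, against 32.5 ± 2.03 in sleep and 33.3 ± 1.97 in enforced wake (SD, n = 3 each), as labelled. Fxr1 library 1 stood apart, with a score of 64.1 on the first principal component of all genes against -31.2 to 13.3 in the other 8 libraries. Results that rest on it are given with and without it. The 5 pan-neuronal markers summed to 3214 to 3452 FPKM in enforced wake, below the 3623 to 3791 of sleep and the 3499 to 3550 of the Fxr1 group, although of the 5 genes 1 was called higher and 2 lower than in sleep. Other neuronal lists did not fall in enforced wake. Excitatory markers summed to 560 to 635 there, 519 to 578 in sleep and 446 to 548 in the Fxr1 group. Inhibitory markers summed to 355 to 391, 309 to 373 and 326 to 338 in the same order. The 8 astrocyte markers summed to 252 to 303 in enforced wake, against 212 to 241 in sleep and 177 to 189 in the Fxr1 group. The 6 microglial markers summed to 10.1 to 18.9 and the 7 oligodendrocyte markers to 93.7 to 157 FPKM over all libraries. Blood markers summed to 102 to 189 in enforced wake, 96.8 to 126 in sleep and 64.0 to 104 in the Fxr1 group. RNA of other cells was thus present, and the marker sums moved with the groups. Their part in the results below was not tested. In such bulk samples, fewer cells of a type and less RNA per cell cannot be told apart.

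The factors took 1.12% ± 0.0309 of all FPKM in enforced wake, against 1.17% ± 0.0247 in sleep and 1.13% ± 0.0423 with Fxr1. Of the 65 genes, 62 had a mean of at least 0.5 FPKM and were tested in each comparison. Eif4e1b, an eIF4E relative of the germ line, and Eif2c5 were listed at 0 in every library, and Eif4ebp3, a 4E-binding protein, reached a mean of 0.119 FPKM in enforced wake and less in the other groups. Eif2c5 is annotated as a long non-coding RNA, entered by its symbol alone and was placed in no factor complex. The level was highest for Eef1a1, from 674 to 888 FPKM over the 9 libraries. Next came Eef1a2 with 95.7 to 401 and the helicase Eif4a2 with 170 to 416 FPKM, whose ranges overlapped. At the other end stood Eef2kmt, a methyltransferase of eEF2, with 0.441 to 1.32 FPKM, and Eif4ebp1 with 0.655 to 2.02 FPKM. The genome holds processed copies of Eef1a1 and other abundant members, and Eif3j1 and Eif3j2, and Eif2s3x and Eif2s3y, are near-identical pairs, so values of these genes are uncertain where reads could be split.

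**Figure D1:**
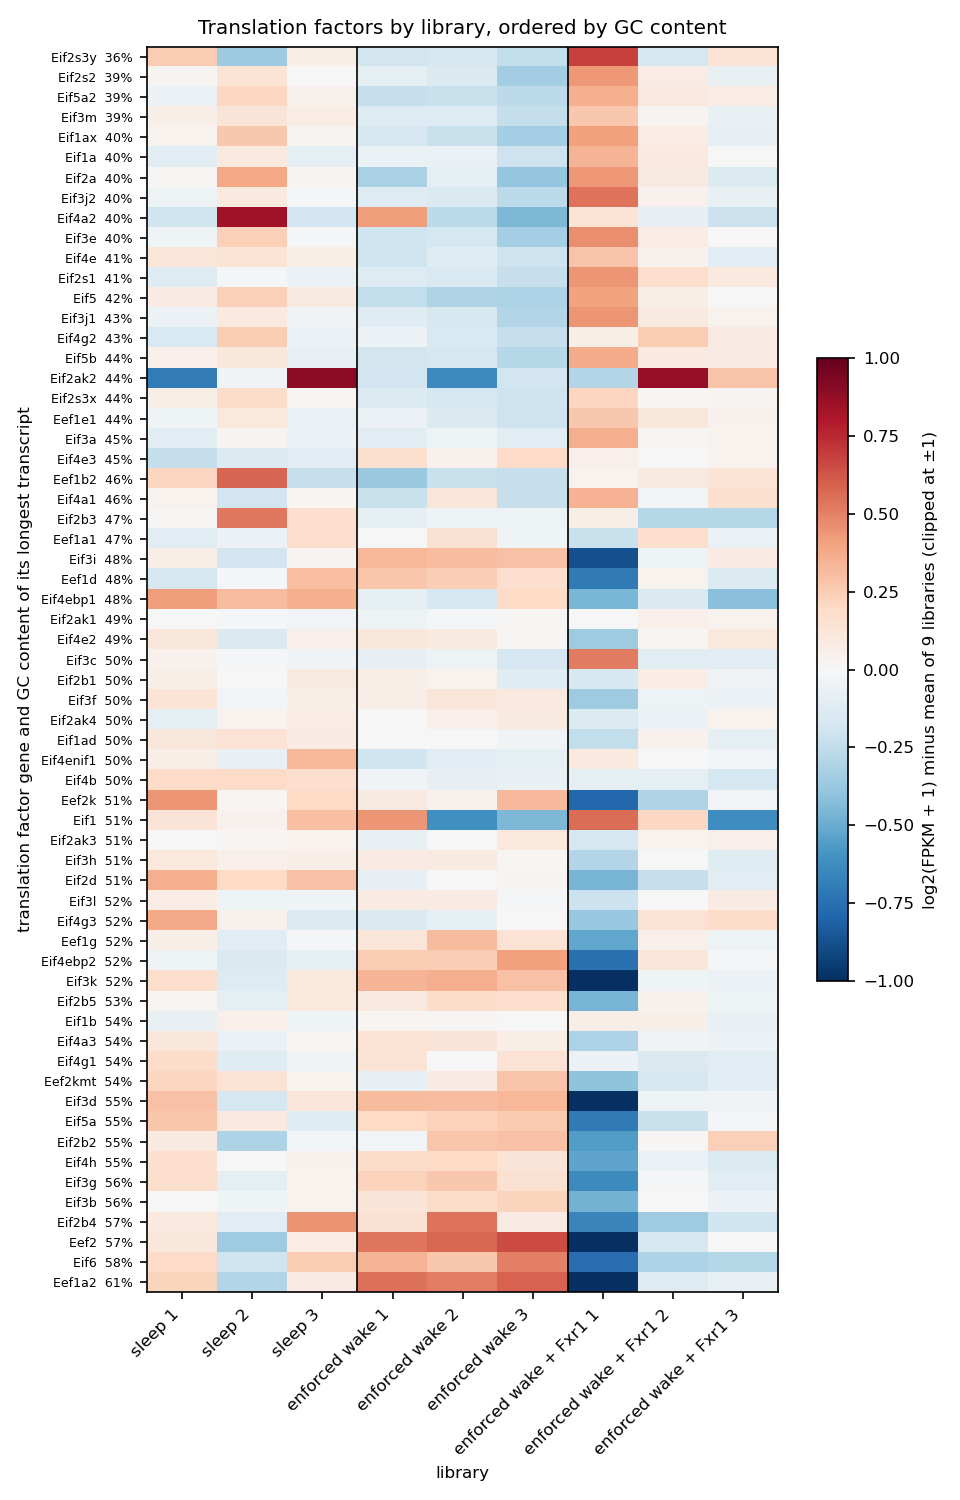
Each row is a translation factor gene that was tested, with the GC content of its longest transcript, from the lowest at the top to the highest at the bottom, and each column is a library. Colour gives log2(FPKM + 1) minus the mean of the 9 libraries: the enforced wake libraries run from low at the top to high at the bottom, and Fxr1 library 1 runs the other way.

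Enforced wake was compared with sleep to see which messenger RNAs of the factors differ in the ribosome-associated RNA. No library without the pull-down was used, so the level of an RNA and its loading on ribosomes cannot be told apart. Factor proteins were not measured. Of the 62 tested factors, 6 were higher and 11 lower in enforced wake (limma, adjusted p under 0.05 over all genes). The percentage called among all 14673 genes was 28.3%, with 15.7% higher and 12.7% lower, so that the factors were called about as often as other genes. Their median difference was -0.06 on the log2(FPKM + 1) scale, against 0.00 for all genes. Groups did not overlap in 29 of the 62 factors, or 46.8%, against 49.5% of all genes. The higher genes were Eef2, Eef1a2, Eif4ebp2, Eif3i, Eif4e3 and Eif3k. The lower genes were Eif5, Eif4e, Eif4b, Eif3m, Eif2d, Eif1ax, Eif2s3x, Eif5a2, Eif4ebp1, Eif5b and Eif3e.

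The differences followed base composition. Across the 62 factors the difference between enforced wake and sleep followed the GC content of the longest transcript with a Pearson r of 0.69 (Spearman 0.70), a description over genes that share the same libraries. Over all 14644 genes with a GC value r was 0.47. The 20 factors with the lowest GC content (36.4% to 44.5%) were all below 0, with a median of -0.25, and 8 of them were called lower. Of the 20 with the highest (51.5% to 60.6%), 18 were above 0, with a median of 0.16, and 4 were called higher. A trend with GC content and transcript length was therefore also removed from each library. Real changes that go with GC content are lost in this step, so results are shown with and without it. With the trend removed, 4 factors were higher and 4 lower, against 10.4% and 13.2% of all genes, 23.6% in all, and the 8 were all among the 17. They are Eef2, Eif3i, Eif4e3 and Eif4ebp2, and on the lower side Eif1ax, Eif2d, Eif4b and Eif5. The part of base composition in the other 9 was not tested. Groups did not overlap in 23 of the 62 factors after the trend was removed, or 37.1%, against 45.1% of all genes.

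**Figure D2:**
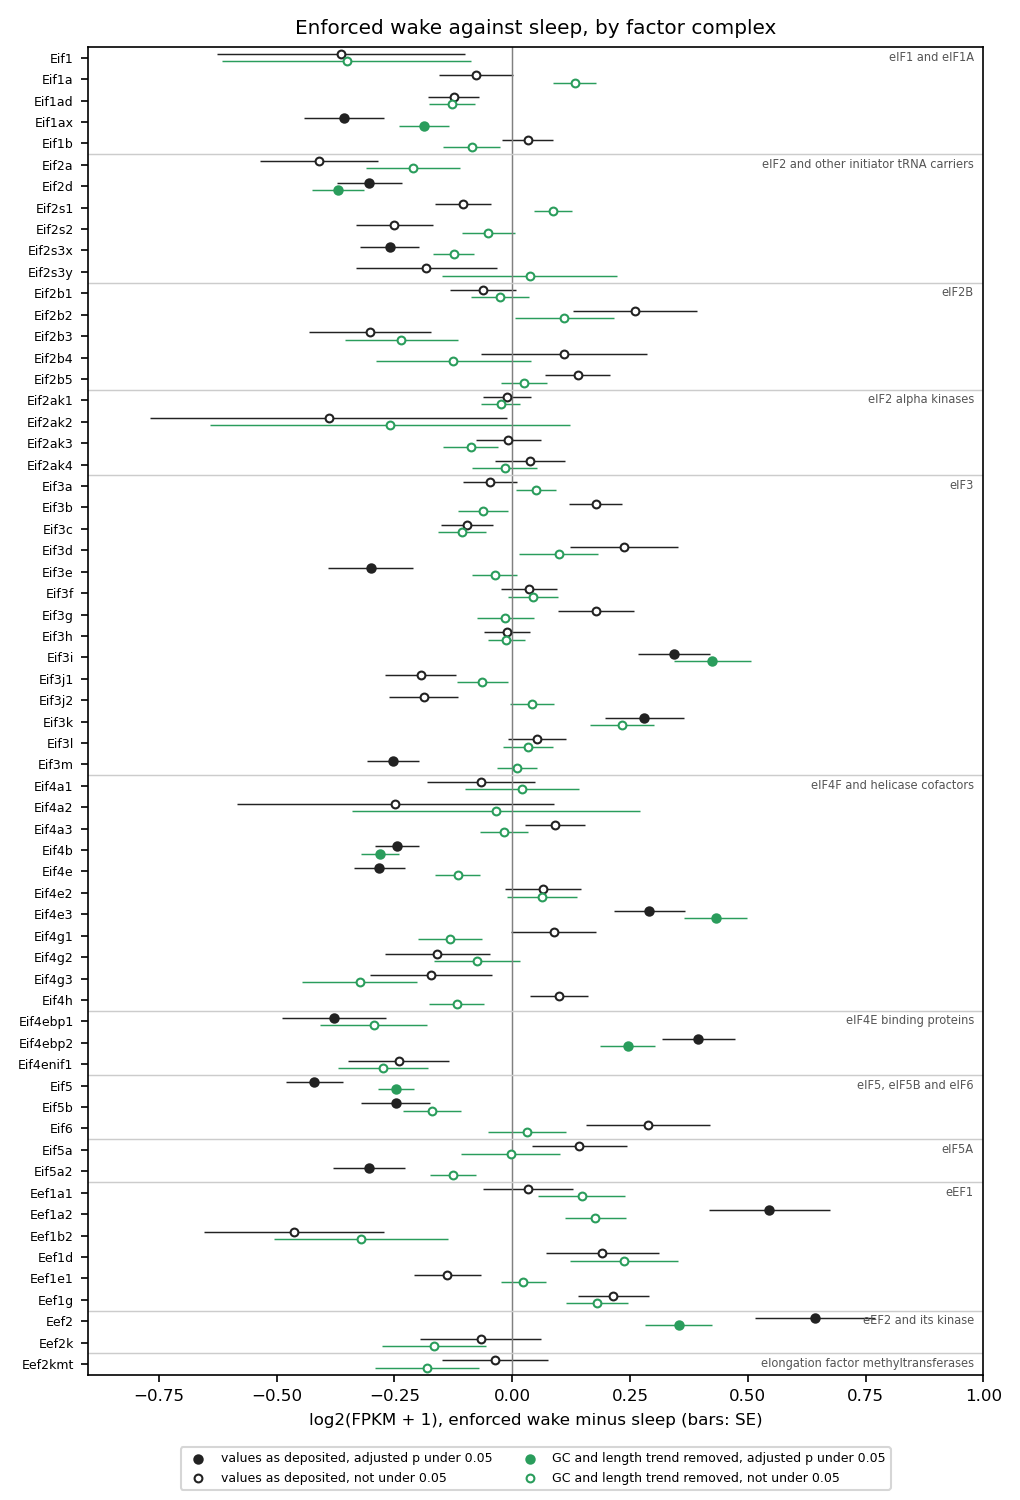
Points give the difference in log2(FPKM + 1) between enforced wake and sleep for the 62 tested factors, ordered by complex, with bars for the SE, from the values as deposited (black) and with the GC and length trend removed (green). Filled points passed the test: 17 in black and 8 in green.

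Among the factors that prepare the small subunit, 1 of the 5 genes listed under eIF1 and eIF1A fell. Eif1ax, an X-linked copy of eIF1A, which promotes scanning for the start codon, had 82.2, 96.6 and 81.7 FPKM in sleep and 71.0, 68.4 and 63.1 in enforced wake. All enforced wake libraries lay below all sleep libraries, with a difference of -0.36 ± 0.08 (SE; adjusted p = 0.0244), and -0.19 with the trend removed (adjusted p = 0.0495). Eif1b, the most abundant gene of the group, had 80.3 ± 3.76 FPKM in sleep and 82.1 ± 0.829 in enforced wake, a difference of 0.03 ± 0.05. Eif1, which guards the choice of the start codon, varied between replicates, with 48.8 ± 21.1 FPKM in enforced wake.

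Of the 6 genes of eIF2 and other carriers of the initiator tRNA, 2 fell and none rose. Eif2d, which delivers tRNA to the ribosome without GTP and acts in reinitiation and recycling (chr1:131153181-131187658), had 11.5, 10.1 and 10.9 FPKM in sleep and 8.14, 8.70 and 8.84 in enforced wake. The groups did not overlap, and the difference of -0.30 ± 0.07 (adjusted p = 0.0225) was -0.37 with the trend removed (adjusted p = 0.00767). It passed in 1 of 6 fits without a library, with adjusted p-values up to 0.0681. Eif2s3x, the X-linked gene of the gamma subunit that holds GTP and the tRNA, fell from 34.5 ± 2.15 to 28.7 ± 0.766 FPKM, by 0.26 on the log2 scale (adjusted p = 0.0257, and 0.0854 with the trend removed). Eif2s1, the alpha subunit that carries the regulatory phosphorylation site, had 23.2 ± 0.981 and 21.5 ± 0.848 FPKM (adjusted p = 0.224). Eif2s2, the beta subunit, was the most abundant of the group, with 42.4 ± 2.27 and 35.5 ± 3.28 FPKM (adjusted p = 0.0612).

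None of the 5 eIF2B genes and none of the 4 eIF2 alpha kinases passed the test. Eif2b5, the catalytic subunit of eIF2B, had 24.8 ± 1.85 FPKM in sleep and 27.4 ± 0.905 in enforced wake (adjusted p = 0.173). The kinase of the endoplasmic reticulum Eif2ak3 (PERK) had 7.55 ± 0.0830 and 7.51 ± 0.551 FPKM, a difference of -0.01 ± 0.07. Eif2ak4 (GCN2), the sensor of uncharged tRNA, had 3.40 ± 0.263 and 3.51 ± 0.148 FPKM, a difference of 0.04 ± 0.07. Eif2ak1 (HRI) was the most abundant kinase, with 19.0 to 20.5 FPKM over all 9 libraries. Eif2ak2 (PKR), which double-stranded RNA activates, varied widely within groups, with 6.15 ± 3.98 FPKM in sleep and 3.97 ± 0.836 in enforced wake.

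In eIF3, the large scaffold of initiation, 2 of 14 subunit genes rose and 2 fell. Eif3i, a subunit with WD repeats, had 51.4, 42.9 and 50.1 FPKM in sleep and 62.1, 60.9 and 60.3 in enforced wake. Every enforced wake library was above every sleep library, by 0.34 ± 0.08 (adjusted p = 0.021), and by 0.43 with the trend removed (adjusted p = 0.0157). Eif3k, a small subunit, rose from 77.4 ± 8.30 to 93.8 ± 2.42 FPKM, by 0.28 (adjusted p = 0.0485, and 0.051 with the trend removed). Eif3m and Eif3e, which are part of the octamer core, fell by 0.25 and 0.30. Eif3m fell from 66.7 ± 1.81 to 55.9 ± 2.45 FPKM (adjusted p = 0.0199), but with the trend removed its difference was 0.01 (adjusted p = 0.891). Eif3c, the most abundant subunit, had 84.6 ± 2.45 and 79.1 ± 3.29 FPKM, a difference of -0.10 ± 0.05.

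Around the cap, 1 of 11 tested genes listed under eIF4F and helicase cofactors rose and 2 fell. The list also holds relatives such as Eif4a3 and Eif4g2, so it is wider than eIF4F itself. Eif4e, the cap-binding protein itself (chr3:138526179-138559696), had 38.6, 39.0 and 37.0 FPKM in sleep and 30.7, 32.5 and 30.5 in enforced wake. The groups were clearly apart, with a difference of -0.28 ± 0.05 (adjusted p = 0.0133) that was -0.12 with the trend removed (adjusted p = 0.13). Eif4b, which stimulates the helicase (chr15:102073773-102097173), had 81.5, 81.3 and 80.1 FPKM in sleep and 69.7, 67.4 and 67.5 in enforced wake. Its difference was -0.24 ± 0.05 (adjusted p = 0.0134), and -0.28 with the trend removed (adjusted p = 0.00657). Eif4e3, a cap-binding relative of eIF4E, went the other way, from 4.15 ± 0.254 to 5.30 ± 0.340 FPKM. It rose by 0.29 ± 0.08 (adjusted p = 0.0317), and by 0.43 with the trend removed (adjusted p = 0.00913). The scaffold Eif4g1 had 56.9 ± 6.46 and 60.4 ± 3.31 FPKM (adjusted p = 0.493). The helicases Eif4a1 and Eif4a2 did not pass the test either, with adjusted p-values of 0.687 and 0.604. Eif4a2 had 203, 416 and 204 FPKM in sleep and 311, 194 and 170 in enforced wake, so that sleep library 2 and enforced wake library 1 were high within their groups.

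Of the 3 tested genes of 4E-binding proteins, 1 rose and 1 fell. Eif4ebp2, the main 4E-binding protein of the brain (chr10:61428491-61452661), had 3.138, 2.850 and 2.997 FPKM in sleep and 4.07, 4.05 and 4.66 in enforced wake. It rose in all 3 libraries above all sleep libraries, by 0.40 ± 0.08 (adjusted p = 0.0142), and by 0.25 with the trend removed (adjusted p = 0.0297). Eif4ebp1 (chr8:27260329-27276674) had 2.025, 1.804 and 1.910 FPKM in sleep and 1.138, 1.018 and 1.605 in enforced wake. It fell by 0.38 (SE 0.11; adjusted p = 0.044, and 0.108 with the trend removed), and it passed in 1 of 6 fits that each left out a library. These are low values, for which the scale of log2(FPKM + 1) understates the change. Eif4enif1, a transporter that takes eIF4E to the nucleus, was the most abundant of the list, with 21.9 ± 3.34 and 18.3 ± 0.725 FPKM (adjusted p = 0.133).

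Eif5, which makes eIF2 hydrolyse its GTP when the start codon is found (chr12:111538016-111546752), had the smallest p of all factors in this comparison. It had 84.3, 94.0 and 84.9 FPKM in sleep and 67.1, 64.5 and 64.2 in enforced wake. The difference was -0.42 ± 0.06 (adjusted p = 0.00659), and -0.25 with the trend removed (adjusted p = 0.00828). Eif5b, the GTPase that joins the subunits, fell from 11.5 ± 0.832 to 9.54 ± 0.441 FPKM (adjusted p = 0.0466, and 0.0917 with the trend removed). Eif5a2, the minor copy of the hypusine-carrying factor eIF5A, fell from 29.5 ± 2.86 to 23.6 ± 0.321 FPKM (adjusted p = 0.029, and 0.111 with the trend removed). Its main copy Eif5a had 141 ± 19.6 and 154 ± 3.47 FPKM, a difference of 0.14 ± 0.10 (adjusted p = 0.324).

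In elongation, 1 of 6 genes listed under eEF1 and 1 of the pair of eEF2 and its kinase rose. Eef2 (chr10:81176631-81182498) had 176, 127 and 172 FPKM in sleep and 237, 243 and 257 in enforced wake. It was higher in all enforced wake libraries, by 0.64 ± 0.13 (adjusted p = 0.015), and by 0.35 with the trend removed (adjusted p = 0.018). Eef1a2 had 311, 217 and 282 FPKM in sleep and 390.0, 381 and 401 in enforced wake. Its difference of 0.55 ± 0.13 (adjusted p = 0.0238) was 0.18 with the trend removed (adjusted p = 0.0959). Eef1a1, with the lower GC content of the sequences shown above, had 789 ± 84.4 and 806 ± 59.7 FPKM, a difference of 0.03 ± 0.10; whether the copies differ in their response was not tested. Eef2k, the kinase that inactivates eEF2, had 5.49 ± 0.954 and 5.18 ± 0.660 FPKM (adjusted p = 0.719). Eef2kmt had 1.09 ± 0.130 and 1.05 ± 0.264 FPKM (adjusted p = 0.82).

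**Figure D3:**
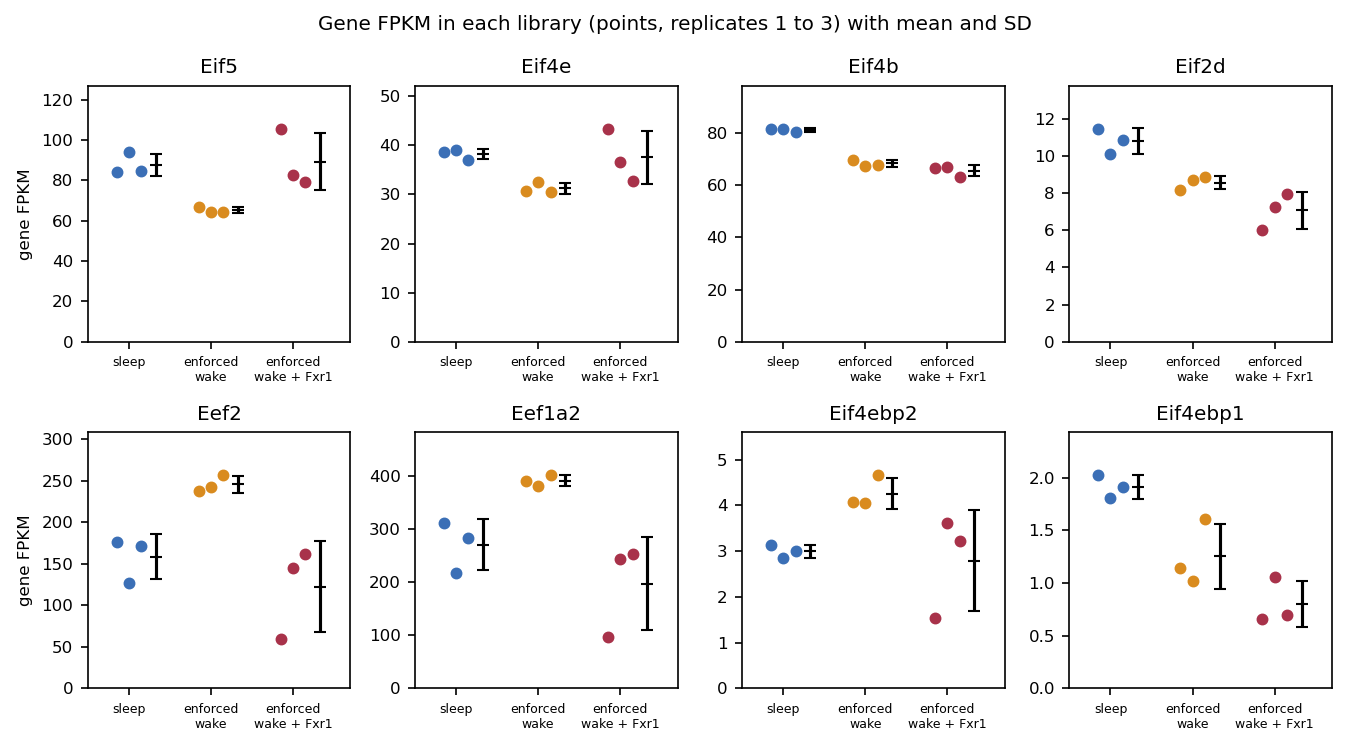
Points are the gene FPKM of each library for 8 factors, in the order of replicates 1 to 3, and the bar beside each group gives its mean and SD. In enforced wake Eif5, Eif4e, Eif4b and Eif2d lie below sleep, and Eef2, Eef1a2 and Eif4ebp2 lie above it, while the Fxr1 group is wide where its library 1 stands apart.

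Single libraries bore on these calls. When each of the 6 libraries was left out in turn, Eif4e, Eif4ebp2 and Eif5 passed in all 6 fits, and Eef2 and Eif4b in 5. Eif1ax passed in 4, Eef1a2, Eif2s3x, Eif3i and Eif3m in 3, Eif3k and Eif5a2 in 2, and Eif2d, Eif4ebp1 and Eif5b in 1. Eif3e and Eif4e3 passed in none. Without enforced wake library 1, 2 factors were higher and 6 lower, without library 2 the counts were 2 and 2, and without library 3 they were 1 and 4. Without sleep library 3 they were 5 and 7. In a fit on all 9 libraries, whose common spread includes the wide Fxr1 group, no factor was higher and 2 were lower, against 4.58% and 4.99% of all genes, 9.56% in all. Of 9 factors whose messenger RNAs carry a 5′ oligopyrimidine tract, through which mTOR controls their translation, 1 rose and 2 fell in the fit on 6 libraries, where 15.7% of all genes were called higher and 12.7% lower.

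Among 34 genes of the same pathway that are not factors by the rule, 33 were tested, of which 5 were higher and 6 lower in enforced wake, against 15.7% and 12.7% of all genes. After removal of the trend 6 were higher and 5 lower, against 10.4% and 13.2%. The list of the integrated stress response, chosen like the others with earlier results of these data known, had 3 of 5 tested genes higher and none lower. Chac1 and Ppp1r15a of this list did not pass, with differences of 0.28 and 0.14 (adjusted p = 0.151 and 0.443). These were 0.04 and -0.09 with the trend removed. Trib3 was too low to be tested. Ddit3 (CHOP), a transcription factor induced in that response, had 8.83, 8.91 and 9.43 FPKM in sleep and 15.5, 15.4 and 15.3 in enforced wake. The groups were far apart, with a difference of 0.71 ± 0.06 (adjusted p = 0.00135), and 0.84 with the trend removed. Atf4, whose translation rises when eIF2 is phosphorylated, had 61.8, 56.7 and 58.9 FPKM in sleep and 79.6, 82.3 and 78.8 in enforced wake, a difference of 0.43 ± 0.05 (adjusted p = 0.00448). Ppp1r15b, a subunit of the eIF2 alpha phosphatase, rose by 0.27 (adjusted p = 0.0277). In the list of reinitiation and selenocysteine factors 3 of 4 genes fell. Denr, the partner of Mcts1 and relative of eIF2D in recycling, had 33.9, 43.6 and 43.7 FPKM in sleep and 26.5, 23.4 and 24.6 in enforced wake. It fell by 0.67 on the log2 scale (adjusted p = 0.00875), and by 0.75 with the trend removed. Mcts2, a near-identical copy of Mcts1 whose reads could be split between them, fell by 0.48 (adjusted p = 0.0156). In the list of mTOR and MNK signalling 2 of 13 rose and 2 fell. Mknk2, a kinase of eIF4E, rose by 0.71 (adjusted p = 0.0126), and by 0.30 with the trend removed (adjusted p = 0.033). Rps6kb1, the S6 kinase, fell by 0.33 (adjusted p = 0.0198, and 0.0553 with the trend removed). The other called genes of this list, Mtor at 0.26 and Pdcd4, an inhibitor of eIF4A, at -0.29, did not pass with the trend removed (adjusted p = 0.961 and 0.175). Then Rheb, the activator of mTOR, at 0.25 (adjusted p = 0.0215) and Mknk1 at -0.32 (adjusted p = 0.0122) passed instead; these 4 were named after their values were seen. Paip1, a partner of the poly(A)-binding protein, fell by 0.35 (adjusted p = 0.0305, and 0.224 with the trend removed). None of 4 termination and recycling genes and neither of the hypusine enzymes passed. The hypusine enzyme Dhps, also named after its value was seen, passed with the trend removed, at -0.31 (adjusted p = 0.0108).

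Fxr1 overexpression during enforced wake was compared with enforced wake alone to see which messenger RNAs of the factors differ. No factor passed the adjusted test (limma, 0 of 62), while 27 had an unadjusted p under 0.05, as did 5582 of the 14563 genes. Among all 14563 genes 0.412% were called, 0.0824% higher and 0.33% lower. With the trend removed no factor and 0.31% of all genes passed, 0.124% higher and 0.186% lower, and 13 factors and 3206 of 14535 genes had an unadjusted p under 0.05. The groups did not overlap in 42 of the 62 factors, or 67.7%, against 52.5% of all genes. After removal of the trend this held for 27 of the 62, or 43.5%, against 33.5% of all genes. Eef2 had 59.9, 145 and 162 FPKM in the Fxr1 group, all below the 237 to 257 of enforced wake, a difference of -1.12 ± 0.36 (adjusted p = 0.0946), and -0.51 with the trend removed. Eef1a2 had 95.7, 243 and 253 FPKM, a difference of -1.11 ± 0.36 (adjusted p = 0.0958), and -0.32 with the trend removed. Library 1 was the lowest in both. Eif5 had 106, 83.0 and 79.3 FPKM, all above the 64.2 to 67.1 of enforced wake, a difference of 0.44 ± 0.12 (adjusted p = 0.088), and 0.17 with the trend removed. Eif5a2 had 36.3, 30.0 and 29.5 FPKM, again above all enforced wake libraries, a difference of 0.42 ± 0.10 (adjusted p = 0.0878). For Eif4b the difference was -0.06 ± 0.07 (adjusted p = 0.568). None of the 33 pathway genes passed either with all libraries. Ddit3 had 4.59, 8.66 and 9.70 FPKM in the Fxr1 group, all below enforced wake, a difference of -0.98 ± 0.24 (adjusted p = 0.0878). Without Fxr1 library 1 it was -0.69 ± 0.07 (adjusted p = 0.00568), and 2 of the 33 pathway genes were then higher and 6 lower, against 5.69% and 17.1% of all genes.

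The order of the factors in this comparison followed GC content as well. The Pearson r over the 62 factors was -0.82 (all genes, -0.74), and -0.16 with the trend removed. The 20 factors with the lowest GC content were all above 0, with a median of 0.36, and 18 of the 20 with the highest were below 0, with a median of -0.39. This comparison and that of enforced wake with sleep share the enforced wake libraries, so their values are given only side by side. The trend also differed between single libraries. Measured as the correlation of a library's deviation from the mean of all libraries with GC content over the 62 factors, it was 0.63, 0.70 and 0.81 in the enforced wake libraries and -0.79, -0.39 and -0.20 in the Fxr1 libraries. In sleep it was 0.41, -0.48 and 0.16, so that libraries of 1 group differed in sign.

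**Figure D4:**
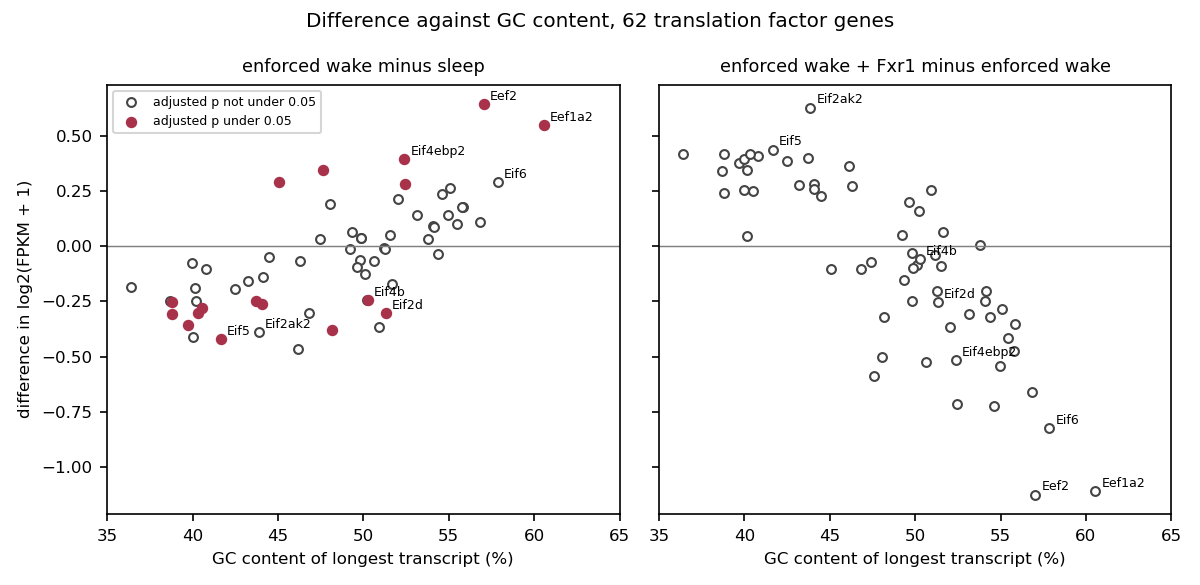
Each point is 1 of the 62 factors, with the GC content of its longest transcript on the horizontal axis and its difference in log2(FPKM + 1) on the vertical axis. The cloud rises with GC content for enforced wake minus sleep (r = 0.69, filled points passed the test) and falls for Fxr1 minus enforced wake (r = -0.82, none passed), and the panels share the enforced wake libraries.

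Without Fxr1 library 1 the result changed. Then 9 factors were higher and 10 lower than in enforced wake, against 5.69% and 17.1% of all genes, 22.8% in all. The lower genes, named after their values were seen, were Eef2, Eef1a2, Eif6, Eif3k, Eif3d, Eif3i, Eif3g, Eif5a, Eif4h and Eef1d. Eef2 had a difference of -0.68 ± 0.07 (adjusted p = 0.00636) and Eef1a2 of -0.65 ± 0.05 (adjusted p = 0.00403). The higher genes were Eif2ak2, Eef1b2, Eif5a2, Eif4g2, Eif5, Eif5b, Eif2s1, Eif3e and Eif4g3. Eif5 had a difference of 0.31 ± 0.05 (adjusted p = 0.0159) and Eif2s1 of 0.31 ± 0.06 (adjusted p = 0.0251). With the trend removed as well, 1 of these 19 passed, Eif4g3 with a difference of 0.36 ± 0.05 (adjusted p = 0.0352), against 0.578% of all genes higher and 1.01% lower, 1.59% in all. For Eef2 the adjusted p was then 0.0627. The left-out Fxr1 library 1 had 31.3 FPKM of Eif4g3, below the 36.9 to 41.0 of enforced wake, so this call rests on leaving it out. The correction of Eif4g3 used its longest transcript, with a GC content of 51.7%, while its most abundant transcript has 48.0%. A fit on all 9 libraries gave 6 higher and 5 lower factors, against 6.71% and 16.3% of all genes, 23.0% in all.

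The Fxr1 group was also set against sleep, where Fxr1 and wake differ at once. No factor was higher and 3 were lower, against 3.2% and 4.58% of 14617 genes, 7.79% in all. Eif4ebp1 had 0.655, 1.05 and 0.696 FPKM in the Fxr1 group, all below the 1.80 to 2.02 of sleep, a difference of -0.70 ± 0.12 (adjusted p = 0.0171), and -0.63 with the trend removed (adjusted p = 0.0128). Eif2d had 6.01, 7.23 and 7.94 FPKM, below the 10.1 to 11.5 of sleep, a difference of -0.56 ± 0.10 (adjusted p = 0.0201), and -0.45 with the trend removed (adjusted p = 0.00367). Eif4b had 66.3, 66.9 and 63.1 FPKM, below the 80.1 to 81.5 of sleep, a difference of -0.30 ± 0.06 (adjusted p = 0.0249), and -0.23 with the trend removed (adjusted p = 0.0372). These 3 genes were also lower in enforced wake without Fxr1, in a comparison that shares the sleep libraries. With the trend removed Eef2k, at -0.56 (adjusted p = 0.0483), and Eif2s1, at 0.21 (adjusted p = 0.0191), passed as well, against 7.18% of all genes higher and 5.62% lower, 12.8% in all. Without Fxr1 library 1 the same 3 genes passed, at -0.64 for Eif4ebp1, -0.46 for Eif2d and -0.31 for Eif4b, with 4.12% of all genes higher and 5.72% lower, 9.85% in all. In a fit on only the 6 libraries compared none did, with 1.26% of all genes called, 0.735% higher and 0.522% lower. Without sleep library 1 or 3 none of the 3 passed, and without sleep library 2 Eif2d alone did. Of the pathway genes, Ppp1r15b was higher by 0.35 (adjusted p = 0.0384) and Mknk1, a kinase of eIF4E, lower, at -0.57 (adjusted p = 0.0435). With the trend removed 3 were higher and 2 lower, against 7.18% and 5.62% of all genes: both of these, Atf4 at 0.47 (adjusted p = 0.00593), Rheb at 0.40 (adjusted p = 0.0156) and Pdcd4 at -0.22 (adjusted p = 0.024).

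Single transcripts were tested to see which carry a gene's value. In enforced wake against sleep 2 of 166 tested transcripts of the factors were lower and none higher, against 1.58% and 2.05% of all 29116 transcripts, 3.62% in all. They were the main transcript of Eif5 (Eif5-202, adjusted p = 0.03), which carries nearly all of its gene's FPKM, and Eif4b-201 (adjusted p = 0.0366). Eif4b-201 is the only listed transcript of Eif4b, so its test cannot show which transcript carries the gene's value. None passed without enforced wake library 1 or 3, 1 passed without library 2, and 4 passed without sleep library 3. The authors' deposited q-values for Eif5-202 and Eif4b-201 in this comparison were 0.445 and 0.415, and no factor transcript was under 0.05 there. In Fxr1 against enforced wake 3 of 172 were higher and 1 lower, against 0.284% and 0.61% of all 28837 transcripts, 0.895% in all. These were named after their values were seen. Without 1 of the enforced wake libraries 2 passed in each case, and without Fxr1 library 1 there were 12. The scaffold gene Eif4g3 (chr4:137993022-138208508), a relative of Eif4g1, held 2 of the 4.

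The level of the whole Eif4g3 gene was 38.8 ± 2.07 FPKM in enforced wake, against 44.3 ± 8.38 in sleep and 41.1 ± 8.51 with Fxr1. Its transcript Eif4g3-212 had 0.898, 0.914 and 0.939 FPKM in enforced wake and 20.7, 23.0 and 26.7 in the Fxr1 group, a difference of 3.67 ± 0.13 (adjusted p = 0.000653). It took 2.29% to 2.44% of the gene's FPKM in enforced wake and 50.5% to 66.1% in the Fxr1 group. Eif4g3-202 went the other way, with 24.9, 22.4 and 28.9 FPKM in enforced wake and 3.95, 1.72 and 0.0712 in the Fxr1 group, and did not pass the test (adjusted p = 0.0914). Eif4g3-215 had 6.46, 10.9 and 5.71 FPKM in enforced wake and was listed at 0 in all 3 Fxr1 libraries (adjusted p = 0.00928). In sleep the libraries disagreed: Eif4g3-212 had 36.3 and 13.5 FPKM in sleep libraries 1 and 2 but 0.960 in library 3, where Eif4g3-202 had 24.8 FPKM. The split thus separated enforced wake from Fxr1 but also ran through the sleep replicates. Transcripts of a gene share exons, so an estimate can jump between them, and whether the reads span the differing exons was not tested. In the authors' deposited table Eif4g3-212 had a q-value of 0.0735, the lowest of all factor transcripts in the Fxr1 comparison, so that none was under 0.05 there.

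**Figure D5:**
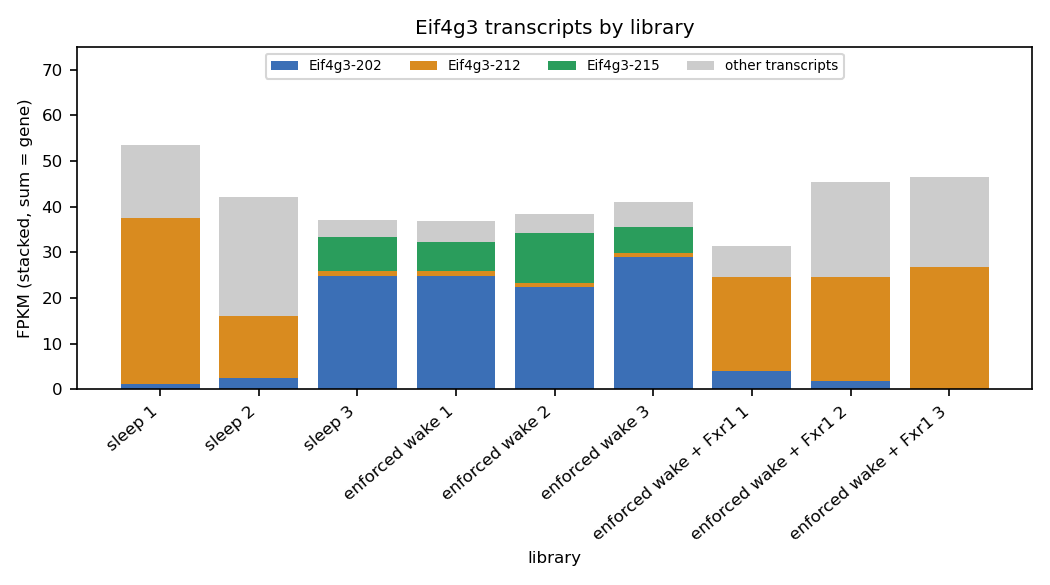
Bars give the FPKM of Eif4g3 in each library, stacked by transcript, so that the full height is the gene. Eif4g3-202 (blue) fills most of the bar in sleep library 3 and in all enforced wake libraries, and Eif4g3-212 (orange) in sleep library 1 and all Fxr1 libraries.

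The other called transcripts were low. Eif4enif1-202 had at most 0.0701 FPKM in enforced wake and 1.099 to 1.657 in the Fxr1 group (adjusted p = 0.0265), but 1.27 in sleep library 3. Eif2b2-203, a transcript with a retained intron, had 0.222 to 0.400 FPKM in enforced wake and 2.11 to 3.49 in the Fxr1 group (adjusted p = 0.0385), with 0.319 to 1.69 in sleep.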

How the data were processed

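The authors deposited 2 tables, 1 of sleep and enforced wake and 1 of enforced wake with and without Fxr1, holding FPKM per transcript and library, per the file headers. Each table also holds the authors' fold, p-value and q-value per transcript, per the file headers, whose tool was not given in the sources used here. HISAT2 2.1.0, SAMtools 1.9, StringTie 1.3.4d and the build GRCm38 are named, per the submitters' processing notes. The enforced wake values were identical in both tables. FPKM are relative to the library's total, and read counts are not given, so depth comes from the step size of low FPKM values.

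Gene FPKM is the sum over transcripts by symbol. log2(FPKM + 1) was tested with limma 3.58.1 in R 4.3.3 (intensity trend, 2-sided) for genes with a mean of at least 0.5 FPKM, with Benjamini-Hochberg adjustment over all genes and a threshold of 0.05. Enforced wake against sleep and Fxr1 against enforced wake used their own 6 libraries, and Fxr1 against sleep all 9. An exact permutation test of 3 against 3 cannot give a p below 0.1. The trend correction subtracts, per library, splines (5 degrees of freedom) of GC content and log length of the longest transcript, fitted over protein-coding genes with a mean of at least 1 FPKM. The script was tested on simulated data with independent noise per gene, without a GC trend or an outlying library. True log2 changes of 1 were recovered in 74% to 84% of changed genes, and changes of 2 in 92% to 97%. Smaller changes were not simulated. GENCODE annotation of GRCm38 held 99.1% of the gene identifiers.

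Members and gene lists were chosen with earlier results of these data known. The lists of factor complexes also hold genes such as Eif4a3, Eif4g2, Eef1e1 and Eif1ad, whose part in the named complex was not checked. Named with values were the factors past the threshold (at most 10 per direction and comparison), the most abundant of each complex, and 15 fixed genes; others are named as chosen after their values were seen, or to show spread. Alternatives were another pseudocount (0.1), other filters (none, and 2 FPKM), median-ratio scaling, the trend correction, a replicate block, other libraries in the fit, and leaving out each library.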

Additional observations from a re-analysis of the deposited data

How the results depend on the processing

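For enforced wake against sleep (6 factors higher, 11 lower, 4156 genes), no filter on low values gave 3 and 6 factors. With the trend of GC content and length removed 4 were lower, also from the most abundant transcript or with a mean of at least 2 FPKM (both chosen after seeing the data). A fit on all 9 libraries gave 0, 2 and 1398. Leaving out each library gave 1 to 5 higher, 2 to 9 lower and 1822 to 3631 genes. Eif3m reversed to 0.00952 in each of the trend corrections other than that from the most abundant transcript. For Fxr1 against enforced wake (0 factors, 60 genes), the genes called were 29 with a pseudocount of 0.1, 4 with no filter and 34 with a mean of at least 2 FPKM. A fit on all 9 libraries gave 6 higher, 5 lower and 3366 genes. Leaving out each library gave 0 to 9 higher, 0 to 10 lower and 2 to 3316 genes. With the trend removed and without Fxr1 library 1 (chosen after seeing the data), 1 was higher, with 231 genes. For Fxr1 against sleep (0 higher, 3 lower, 1138 genes), removing the trend gave 1 higher and 1868 genes, or 1915 from the most abundant transcript, and also 1 higher without Fxr1 library 1. The fit on 6 libraries gave 0 lower and 183 genes. Leaving out each library gave 0 to 4 lower and 248 to 1440 genes. Of factor transcripts, leaving out each library gave 0 to 4 (all transcripts 256 to 611, of 1055) and 2 to 12 (167 to 787, of 258). The cause of these moves was not tested. Same-numbered libraries deviated with a correlation of -0.253 to 0.167, and libraries of different number with -0.378 to 0.427. With 3 libraries per group these values cannot decide whether equal numbers share a batch, so pairing remains unknown. A replicate block gave 372 genes and 0 lower factors for Fxr1 against sleep, 1 gene for Fxr1 against enforced wake, and for transcripts 0 factors in both comparisons (11 and 0 of all). Block and trend together gave 3 higher, 4 lower and 2238 genes for enforced wake against sleep, and 1 gene for Fxr1 against enforced wake.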
